A study of Mus musculus with 12 samples.

Results

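NF-kB is the transcription factor family through which myeloid cells answer cytokines and microbial products, and 10 of its genes were followed here in bone marrow monocytes and macrophages of mice carrying a human leukemia. They are the subunit genes Nfkb1, Nfkb2, Rela, Relb and Rel, the inhibitor genes Nfkbia, Nfkbiz and Tnfaip3, and the target genes Tnf and Icam1. A gene was taken by its symbol on the array's platform table, with the brightest transcript cluster (the array's unit for 1 gene) where a symbol had several. Of the 10 symbols 9 had a cluster named, among 30792 named genes, and each had 1 cluster only. All 9 also passed the filter on dim clusters that 19548 named genes passed. No cluster was named Nfkb1 here, so this gene was not analysed.

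The 12 mice were Rag2-/-gamma c-/- on a BALB/c background, and thus had no mature T, B or natural killer cells of their own. MEC1, a single human cell line derived from chronic lymphocytic leukemia, was given by vein to 6 mice, while 6 age-matched mice of the same genotype had no MEC1. Groups of 3 mice were killed at 21 d, early in the disease, at an age of 11 weeks, or at 31 d, late in the disease, at 13 weeks. Cells were purified from the marrow by magnetic separation, and the RNA of each mouse was read on its own Clariom D array, and precision is bounded by there being few arrays. The comparisons asked whether these genes differed with the leukemia on either day and between the days.

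In resting cells NF-kB dimers are held in the cytoplasm by IkB proteins. Cytokine and Toll-like receptors activate the IKK kinase complex, which marks the IkB proteins for destruction and frees Rela and Rel dimers in the canonical route, while a slower non-canonical route processes the Nfkb2 product and releases Relb. The freed dimers bind short kappaB sites and switch on inflammatory genes, among them Nfkbia and Tnfaip3, which shut the pathway down again.

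Promoter sequence was listed in RefSeq (GRCm38.p6) for 7 of the 10 genes. Shown are the 250 bases before a transcription start of the genes that differed with MEC1 and had a sequence listed (Nfkb2, Rela and Icam1), together with Nfkbia and Rel, with capitals marking matches to the kappaB consensus on either strand.
Nfkb2, chr19:46304487-46304736, plus strand: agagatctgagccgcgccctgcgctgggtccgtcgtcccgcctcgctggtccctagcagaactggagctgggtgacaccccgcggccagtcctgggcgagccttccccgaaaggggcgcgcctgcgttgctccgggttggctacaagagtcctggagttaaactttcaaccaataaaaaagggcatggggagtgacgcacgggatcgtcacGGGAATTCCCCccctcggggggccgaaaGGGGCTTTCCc
Rela, chr19:5637291-5637540, plus strand: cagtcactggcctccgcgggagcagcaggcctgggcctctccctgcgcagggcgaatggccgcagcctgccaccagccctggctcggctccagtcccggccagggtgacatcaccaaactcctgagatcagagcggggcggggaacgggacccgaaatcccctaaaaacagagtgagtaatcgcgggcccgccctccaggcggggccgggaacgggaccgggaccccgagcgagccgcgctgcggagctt
Icam1, chr9:21015690-21015939, plus strand: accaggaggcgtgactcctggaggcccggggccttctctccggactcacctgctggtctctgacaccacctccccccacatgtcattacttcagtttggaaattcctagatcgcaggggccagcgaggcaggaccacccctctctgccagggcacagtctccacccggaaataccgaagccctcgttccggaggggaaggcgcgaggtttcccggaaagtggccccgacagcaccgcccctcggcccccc
Nfkbia, chr12:55492648-55492897, minus strand: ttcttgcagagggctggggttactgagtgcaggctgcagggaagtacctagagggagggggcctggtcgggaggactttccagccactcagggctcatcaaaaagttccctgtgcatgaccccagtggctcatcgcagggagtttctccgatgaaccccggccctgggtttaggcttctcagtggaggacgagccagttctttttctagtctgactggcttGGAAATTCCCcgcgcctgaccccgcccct
Rel, chr11:23770970-23771219, minus strand: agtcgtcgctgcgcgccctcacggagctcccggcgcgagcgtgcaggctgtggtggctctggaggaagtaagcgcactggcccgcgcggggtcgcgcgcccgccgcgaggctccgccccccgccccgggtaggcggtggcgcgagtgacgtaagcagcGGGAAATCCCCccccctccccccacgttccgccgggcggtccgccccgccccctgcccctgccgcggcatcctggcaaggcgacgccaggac
The kappaB consensus was matched in 4 of the 7 genes (Nfkb2, Rel, Nfkbia and Tnfaip3), where overlapping matches share capitals. Of all 27025 genes listed, 8.23% had a match in such a window, as did 7.25% of the 32851 windows. A looser pattern (GGG, then any 5 bases, then CC), searched on both strands and covering every consensus match, occurred in all 7 genes, and in 48.7% of genes and 45.8% of windows overall. The kappaB site of the immunoglobulin kappa enhancer, itself a consensus match, occurred near another listed start of Nfkb2, and in 0.159% of genes and 0.14% of windows. A match describes letters only, and sites that depart from the consensus are not marked. The windows of Rela, Icam1 and Tnf, without a consensus match, thus say nothing of binding within them or elsewhere.

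Some measures moved with MEC1 on whole arrays and stand beside every result that follows. The hybridisation controls, bacterial and bacteriophage sequences added in fixed amounts, were higher with MEC1 by 1.53 on the log2 scale over both days (exact stratified permutation test, two-sided, p = 0.005, the smallest 3 mice a group allow). By the same exact permutation test the poly-A controls, added to the RNA before labelling, were higher by 0.86 (p = 0.005) and the median of the mitochondrial features, of which there were only 2, was lower (-0.94, p = 0.005). Array medians lay between 3.80 and 3.93 without MEC1 and between 3.93 and 4.40 with it, the highest in MEC1 31 d replicate 3. The mean log2 level of 13 of 14 monocyte and macrophage markers was 10.98 to 11.26 without MEC1 on the 2 days, 10.20 to 10.63 with MEC1 at 21 d and 9.17 to 10.48 at 31 d, where 10 of the 13 fell and 1 rose. The 14 neutrophil markers, some of which monocytes and their precursors also express, had means of 11.00 to 13.44 over the 12 arrays, and at 31 d 5 of them fell and 1 rose. Of all named genes 29.1% fell and 21.5% rose with MEC1 at 31 d. Erythroid markers (12 of 13 listed) had means of 10.37 to 12.00 without MEC1, 6.72 to 10.34 with MEC1 at 21 d and 5.16 to 6.10 at 31 d. B lineage markers (7 of 8, of which 5 were tested) had means of 4.04 to 4.19 without MEC1 and 4.48 to 5.26 with it. These levels are near the floor: on each day 4 of the 7 were at or below the array median in all control arrays. Among them Pax5 rose by 1.34 at 21 d and 2.23 at 31 d and Ebf1 by 0.98 and 1.57, while Cd79b did not pass on either day. Dendritic cell markers (8 of 8) had means of 5.86 to 6.25 without MEC1, 5.03 to 5.32 with MEC1 at 21 d and 4.75 to 5.02 at 31 d, and basophil and mast cell markers (6 of 6) had means of 9.02 to 10.42, 8.14 to 9.34 and 7.80 to 8.93. Endothelial and stromal markers (11 of 12) had means of 4.32 to 4.77 without MEC1 and 4.34 to 4.54 with it; of 8 tested, Pecam1 and Col1a1 fell at 31 d. The part of these shifts in the results was not tested, and in such bulk RNA fewer cells of a type cannot be told apart from less RNA per cell.

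At 21 d none of the 9 genes passed the test between mice with and without MEC1, and at 31 d 4 did. Nfkb2, Relb and Icam1 rose and Rela fell late in the disease, by at most 1.91-fold. Calls were made with limma over all 37240 tested clusters at a Benjamini-Hochberg adjusted p under 0.05. At 21 d 5.82% of named genes were called and at 31 d 50.6% were (21.5% higher, 29.1% lower), so 4 of 9 at 31 d is near the share of all genes. At an unadjusted p under 0.05, 1 of the 9 was past the threshold at 21 d, against 25.7% of named genes. With the hybridisation controls entered as a covariate none of the 9 passed at 31 d and Rela turned to 0.82 (adjusted p = 0.742), while 92.1% of that level's variance lay between the 4 groups. Fitted on the 6 arrays of 31 d alone, Nfkb2, Rela and Icam1 had adjusted p of 0.0689, 0.0509 and 0.0521, and only Relb passed. Array weights, an alternative cited below, also raised the calls among other pathway genes at 21 d and between the days. The share of all named genes called with them is not given here, so a pass with them has no background beside it.

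**Figure D1:**
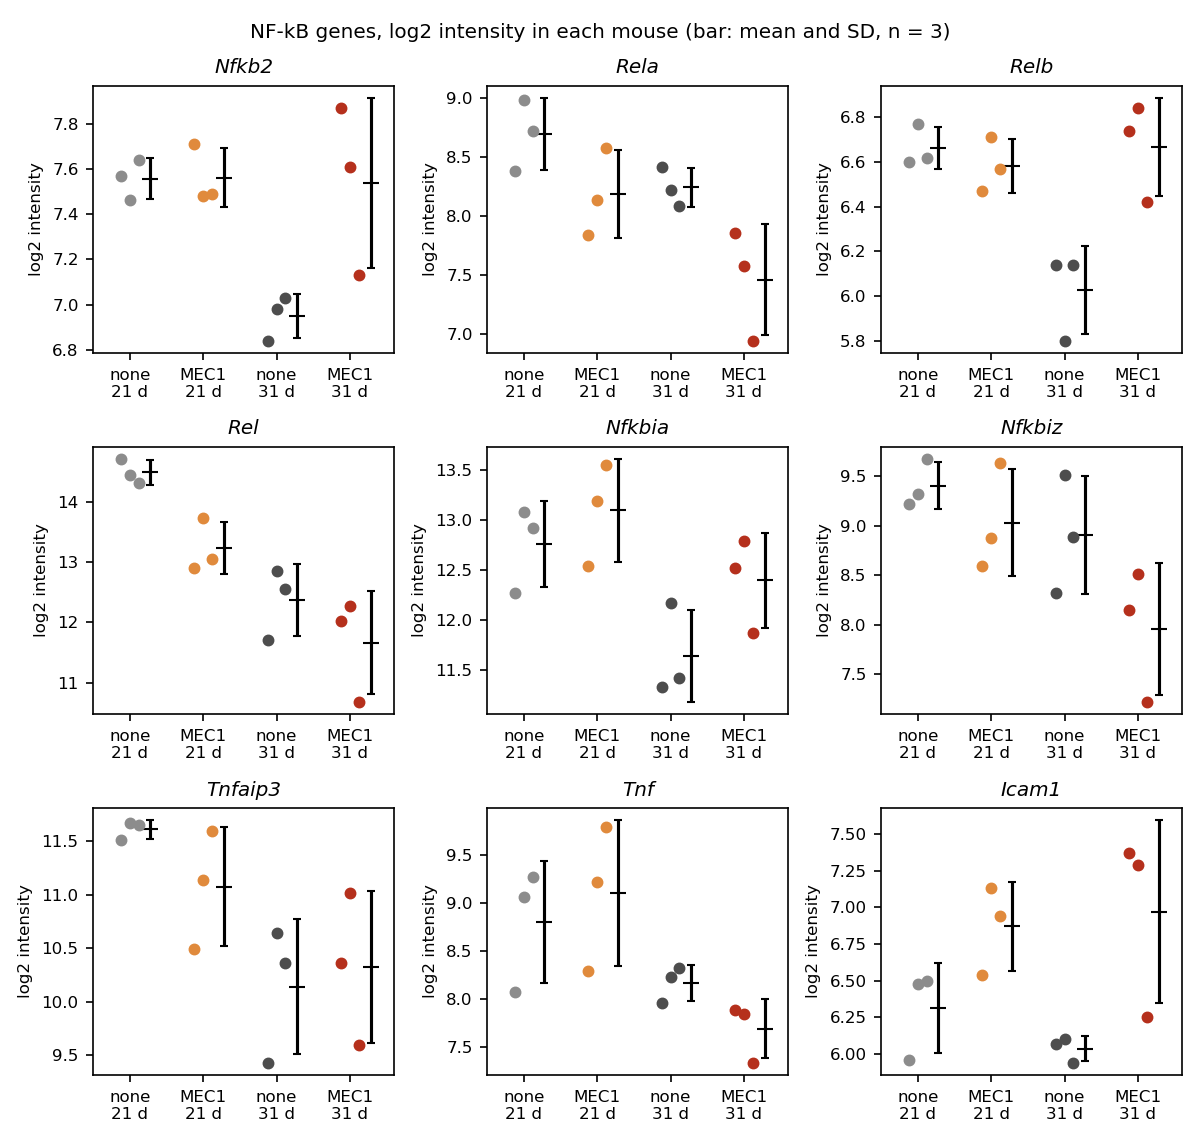
Log2 intensity (vertical axis) of the 9 NF-kB genes in each of the 12 mice, by group (horizontal axis), with the mean and SD of 3 mice beside the points. Nfkb2 and Relb were lowest in the 3 mice without MEC1 at 31 d, while Rel was highest in the 3 without MEC1 at 21 d.

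Among the subunits, Nfkb2 and Relb, the precursor and the partner of the non-canonical dimer, had like profiles. Nfkb2 had log2 intensities of 7.57, 7.46 and 7.64 without MEC1 and 7.71, 7.48 and 7.49 with MEC1 at 21 d. At 31 d Nfkb2 stood at 6.84, 6.98 and 7.03 without MEC1 and at 7.87, 7.61 and 7.13 with it. The groups overlapped at 21 d and did not at 31 d, where the lowest MEC1 mouse lay only a little above the highest control. The difference for Nfkb2 was 0.00 at 21 d (SE 0.183) and 0.59 at 31 d (SE 0.183, adjusted p = 0.0256, limma).

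Relb stood at 6.60, 6.77 and 6.62 without MEC1 and 6.47, 6.71 and 6.57 with MEC1 at 21 d. Its values at 31 d were 6.14, 5.80 and 6.14 without MEC1 and 6.74, 6.84 and 6.42 with it. As for Nfkb2, the 3 late control mice were the lowest of the 12, and the late MEC1 mice were at the level of both early groups. Relb rose at 31 d by 0.64 (SE 0.16, adjusted p = 0.0101, limma), after a difference of -0.08 at 21 d (95% interval -0.43 to 0.27).

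Rela, the main activating subunit of the canonical dimer, went the other way at 31 d. Its log2 intensities were 8.38, 8.99 and 8.72 without MEC1 and 7.84, 8.14 and 8.58 with it at 21 d. At 31 d they were 8.42, 8.22 and 8.09 without MEC1 and 7.86, 7.58 and 6.94 with it. The lowest value was that of MEC1 31 d replicate 3, the array that stood apart on the whole. Rela fell by 0.78 at 31 d (SE 0.267, adjusted p = 0.0357, limma) with groups that did not overlap, and had a difference of -0.51 at 21 d that did not pass (adjusted p = 0.273), though with array weights it did (-0.69, adjusted p = 0.00383).

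Rel encodes c-Rel, a subunit prominent in lymphoid and myeloid cells, and was the subunit with the widest spread of group means. Its log2 intensities were 14.71, 14.45 and 14.31 without MEC1 and 12.91, 13.73 and 13.06 with MEC1 at 21 d. At 31 d they were 11.71, 12.86 and 12.56 without MEC1 and 12.03, 12.28 and 10.68 with it. The early control mice were thus the highest of all, and at 31 d the groups overlapped. The difference with MEC1 was -1.26 at 21 d (SE 0.418, adjusted p = 0.11) and -0.71 at 31 d (adjusted p = 0.18), and neither passed. Without MEC1 31 d replicate 3, whose removal lowers the shared spread, the difference of Rel at 21 d passed at the same size (adjusted p = 0.0387), and with array weights it passed at a smaller one (-0.76, adjusted p = 0.0328).

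Calls for the subunits other than Relb rested on few arrays. Relb passed whichever of the 12 arrays was left out, with a highest adjusted p of 0.0454. Nfkb2 passed in 7 of 12, and lost its call without any 1 of the 3 control arrays at 31 d (0.0766, 0.0613 and 0.0503 without replicates 1, 2 and 3) or without MEC1 31 d replicate 1 or 2 (0.0786 and 0.0657). Rela passed in 7 of 12, losing its call without the same 3 control arrays (0.1, 0.0797 and 0.0583) or without MEC1 31 d replicate 2 (0.0555) or 3 (log2 difference -0.52, adjusted p = 0.132). Rela did not pass with quantile normalization either (-0.14, adjusted p = 0.65), nor with the replicate numbers as a block (adjusted p = 0.0591). With each array centred on its median, Nfkb2 and Relb had differences of 0.16 and 0.21 at 31 d that did not pass (adjusted p = 0.582 and 0.415).

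The 3 inhibitor genes did not pass on either day. Nfkbia encodes IkB alpha, the inhibitor that NF-kB itself induces. Its log2 intensities were 12.27, 13.08 and 12.92 without MEC1 and 12.54, 13.19 and 13.55 with it at 21 d, and 11.33, 12.17 and 11.42 against 12.52, 12.79 and 11.87 at 31 d. The late control mice held the 3 lowest values but for 1 MEC1 mouse at 31 d, whose value lay below the highest of these controls. The difference was 0.34 at 21 d (adjusted p = 0.565) and 0.75 at 31 d (SE 0.347, 95% interval -0.01 to 1.52, adjusted p = 0.097, limma). It passed at 31 d with quantile normalization (1.13, adjusted p = 0.00529) and with array weights (1.09, adjusted p = 0.00412).

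Nfkbiz encodes IkB zeta, a nuclear IkB protein that helps induce secondary response genes. Its values were 9.22, 9.32 and 9.67 without MEC1 and 8.59, 8.87 and 9.63 with it at 21 d, and 8.32, 9.51 and 8.88 against 8.15, 8.51 and 7.22 at 31 d. Groups overlapped on both days, with the lowest value again in MEC1 31 d replicate 3. Its difference of -0.94 at 31 d (SE 0.39, adjusted p = 0.0698) did not pass, though it did without control 31 d replicate 1 (-1.24, adjusted p = 0.042), without MEC1 31 d replicate 2 (-1.22, adjusted p = 0.0429) and with arrays centred on their median (-1.37, adjusted p = 0.0295).

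Tnfaip3 encodes A20, the ubiquitin-editing enzyme that ends signalling from TNF and Toll-like receptors. It stood at 11.51, 11.67 and 11.65 without MEC1 and 10.49, 11.14 and 11.60 with it at 21 d, and at 9.43, 10.64 and 10.36 against 10.36, 11.02 and 9.60 at 31 d. The early control mice lay close together and above nearly all others, while each of the other 3 groups spanned over 1 log2 unit, and groups overlapped on both days. Differences of -0.53 at 21 d (adjusted p = 0.435) and 0.18 at 31 d (adjusted p = 0.721) did not pass, and the second turned to -0.25 with arrays centred on their median.

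Of the targets, Icam1, the adhesion molecule that binds leukocyte integrins, rose at 31 d. Its log2 intensities were 5.96, 6.48 and 6.50 without MEC1 and 6.54, 7.13 and 6.94 with it at 21 d, and 6.07, 6.10 and 5.94 against 7.37, 7.29 and 6.25 at 31 d. Every MEC1 mouse lay above every control mouse of its day, as was so for 30.9% of named genes in either direction at 21 d and for 68.1% at 31 d. The rise at 31 d was 0.93 or 1.91-fold (SE 0.289, adjusted p = 0.0247, limma), and the difference at 21 d was 0.56 (95% interval -0.08 to 1.19, adjusted p = 0.269), which passed with array weights (0.66, adjusted p = 0.00531). It passed in 7 of 12 fits that left out 1 array, and was 1.29 without MEC1 31 d replicate 3. Its call was lost on removing any 1 of the late control arrays (adjusted p = 0.0539, 0.0568 and 0.0698 for replicates 1, 2 and 3) or MEC1 31 d replicate 1 or 2 (0.0765 and 0.0791), and with arrays centred on their median (0.50, adjusted p = 0.263).

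Tnf, the inflammatory cytokine, did not pass on either day. Its values were 8.08, 9.06 and 9.27 without MEC1 and 8.29, 9.22 and 9.79 with it at 21 d, and 7.96, 8.23 and 8.32 against 7.89, 7.85 and 7.34 at 31 d. The groups overlapped at 21 d, and at 31 d the 3 MEC1 mice were all below the 3 controls, though the nearest values almost met. Its difference went from 0.30 at 21 d (95% interval -0.55 to 1.14) to -0.48 at 31 d (95% interval -1.32 to 0.37, adjusted p = 0.322). With quantile normalization the value at 31 d turned to 0.20 (adjusted p = 0.645).

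The level of a transcript bears on these differences, because bright and dim clusters shifted apart on the MEC1 arrays. For each gene the differences of all tested clusters within 1 log2 unit of its own control mean were therefore summarised. At 31 d clusters at the level of Nfkb2 had a median difference of -0.58, those at the level of Relb one of -0.31 and those at the level of Icam1 one of -0.32, so that these 3 genes rose where clusters of like level were mostly lower. Nfkbia, at 0.75, and Tnfaip3, at 0.18, lay above the upper quartile of clusters of their level, which was -0.31 and -0.39. In contrast, the -0.78 of Rela and the -0.94 of Nfkbiz lay near the medians of their level, -0.85 and -0.92. At 21 d the difference of Rel, -1.26, lay below the lower quartile of its level, -0.55. On the same day Nfkb2 (0.0033), Nfkbia (0.34), Tnf (0.30) and Icam1 (0.56) lay above the upper quartiles of theirs, which were -0.043, 0.082, -0.073 and 0.083.

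**Figure D2:**
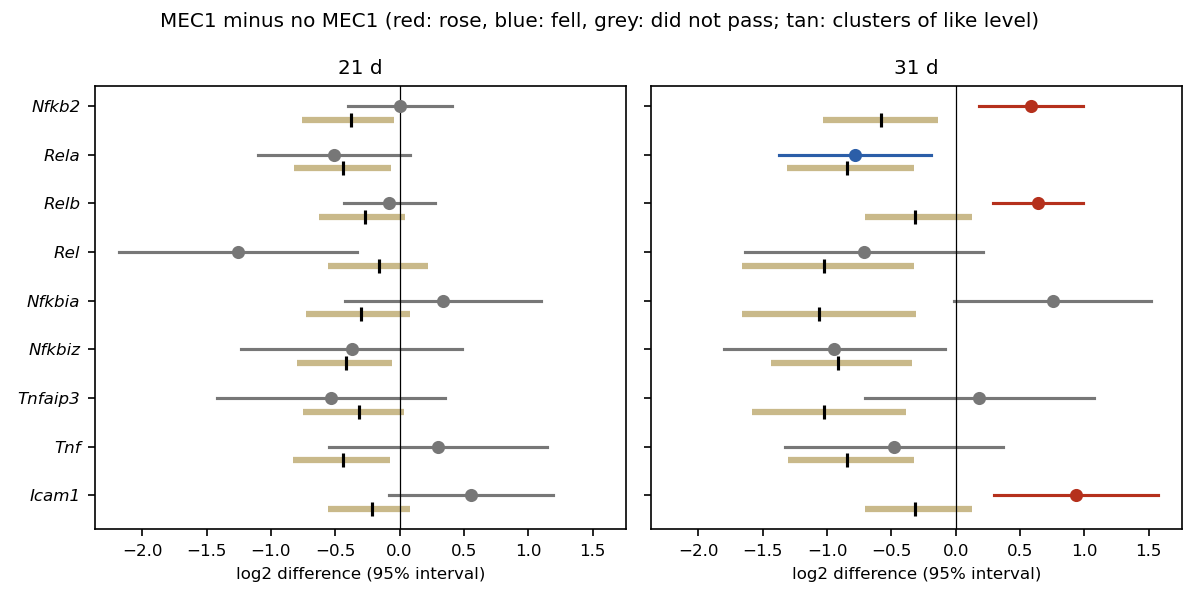
Log2 difference of MEC1 minus no MEC1 (horizontal axis, 95% interval of limma) for the 9 genes (vertical axis) at 21 d and 31 d, with the quartile range (tan) and median (tick) of clusters within 1 log2 unit of the gene's control mean. Nfkb2, Relb and Icam1 rose and Rela fell at 31 d, and no gene passed at 21 d.

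Between the days, all 9 genes were lower at 31 d than at 21 d in mice without MEC1, where 43.7% of named genes were lower. None passed the adjusted test (limma), which called 0.0102% of named genes in that comparison. At an unadjusted p under 0.05, 5 of the 9 were lower, as were 2.18% of named genes, and with array weights 3 passed the adjusted test. The groups did not overlap for 5 of the 9, against 15% of named genes. Rel had the widest difference, -2.11 (SE 0.418, 95% interval -3.04 to -1.19, adjusted p = 0.152), followed by Tnfaip3 at -1.47 (SE 0.403, adjusted p = 0.354) and Nfkbia at -1.12 (SE 0.347, adjusted p = 0.455). Relb differed by -0.64 and Nfkb2 by -0.61 (adjusted p = 0.281 and 0.43), close in size to their rises with MEC1 at 31 d. The 31 d MEC1 comparison shares these control mice, so a low level in them enters both values.

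In mice with MEC1, 7 of the 9 were lower at 31 d than at 21 d, against 53.4% of named genes, and none passed (0.297% of named genes did). At an unadjusted p under 0.05, 4 were lower, as were 12.1% of named genes, and with array weights 3 passed the adjusted test. Rel differed by -1.57 (SE 0.418, adjusted p = 0.13), Tnf by -1.41 (SE 0.384, adjusted p = 0.136) and Nfkbiz by -1.07 (SE 0.39, adjusted p = 0.214), each with groups that did not overlap, as was so for 19.2% of named genes. Nfkb2, Relb and Icam1, the 3 genes that rose with MEC1 at 31 d, had differences between the days of -0.02, 0.08 and 0.10, with 95% intervals of -0.43 to 0.38, -0.27 to 0.44 and -0.54 to 0.74. The mice of the 2 days also differed in age, which cannot be told apart from time after injection.

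**Figure D3:**
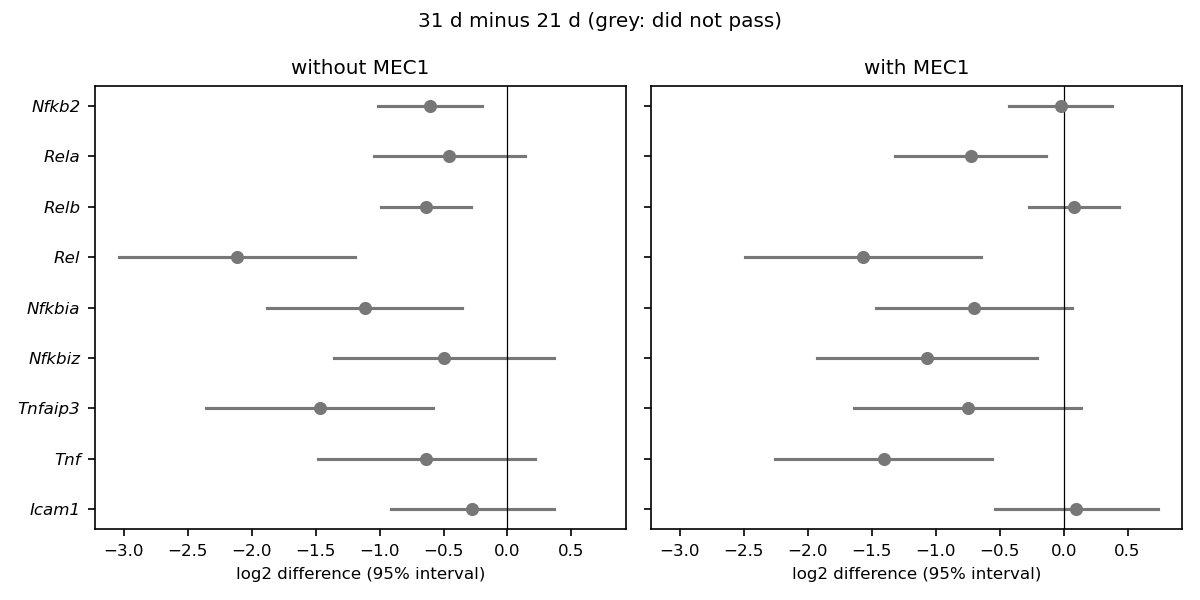
Log2 difference of 31 d minus 21 d (horizontal axis, 95% interval of limma) for the 9 genes (vertical axis) in mice without and with MEC1. All 9 values without MEC1 are below 0, and none passed the adjusted test in either panel.

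The difference between the late and the early MEC1 effect passed for none of the 9 (0.00512% of named genes passed), with 2 at an unadjusted p under 0.05, against 15.2% of named genes. These were Relb, whose effect was higher at 31 d by 0.72 (SE 0.226, adjusted p = 0.331), and Nfkb2, by 0.58 (SE 0.259, adjusted p = 0.387), both of which passed with array weights (adjusted p = 0.0386 and 0.0416). Tnf had the most negative value, -0.77 (95% interval -1.97 to 0.42). It is therefore not shown that any of the calls at 31 d differed from the effect at 21 d.

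The profiles of the 9 genes over the 12 arrays, described by Pearson's r without a test, fell into a few patterns that mix group, day and array-wide shifts. Rel and Tnfaip3 were alike (0.87), as were Rela and Nfkbiz (0.84) and Nfkb2 and Relb (0.81), whereas Rela had almost no relation to Relb (0.03) or Nfkb2 (0.04). Among all tested named genes, Relb was most like Trem1, a receptor that amplifies myeloid inflammation (0.92), followed by Slc16a3, a lactate exporter, and Cstb, a cysteine protease inhibitor (0.88 and 0.87). Icam1 was most like F10, the gene of coagulation factor X (0.97), and the first gene with a known protein for Nfkb2 was Cxcl16, a chemokine gene (0.87). For Nfkbia the 3 most alike were Usp2, Psmd14 and Acod1, the last of which makes itaconate in activated macrophages (0.88, 0.87 and 0.87). Tnfaip3 was most like Zfand2a, Plk3 and Ifrd1, at 0.93 each. Rela was most like Ubald2 (0.98), Rel like Necap1 (0.98), Nfkbiz like Erdr1 (0.96) and Tnf like Sf3b4 (0.93). Ahead of Cxcl16 for Nfkb2 stood 1700046C09Rik (0.87), while Gm8260 and Gm9149 (0.96 and 0.94) followed F10 for Icam1.

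The rest of the pathway was read from 131 further genes, of which 120 had a cluster and 113 were tested. At 21 d 12 of them fell and 1 rose, against 3.27% and 2.55% of named genes, and at 31 d 37 fell and 13 rose, against 29.1% and 21.5%. The median difference over the 113 was -0.22 at 21 d and -0.28 at 31 d, beside 0.00 and -0.11 over all tested named genes. Neither these medians nor the shares of named genes, here and for each list below, are matched for the level of the genes. The count of 13 at 21 d was 5 and 4 without control 21 d replicates 2 and 3, 3, 4 and 21 without MEC1 21 d replicates 1, 2 and 3, and 8 without control 31 d replicate 3. The share of all named genes called in those fits is not given here.

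Receptors that feed NF-kB, listed together with the TNF sheddase gene Adam17, were lower where they changed at 21 d. Of 19 tested, 3 fell, against 3.27% of named genes. These were the endosomal RNA sensor Tlr7 by 2.66 (SE 0.361, adjusted p = 0.00547, limma), the second TNF receptor Tnfrsf1b by 1.90 (SE 0.246, adjusted p = 0.00456) and the endotoxin co-receptor Cd14 by 1.26 (SE 0.289, adjusted p = 0.0387). Tlr7 and Tnfrsf1b passed whichever of the 12 arrays was left out, and Cd14 in 5 of the 12 fits. At 31 d 5 of the 19 fell and 2 rose, where 29.1% and 21.5% of named genes did. Tlr7 stood at -1.80, Tnfrsf1b at -1.67, the DNA sensor Tlr9 at -1.22 and the first TNF receptor Tnfrsf1a at -1.01. Cd40, the receptor for the T cell ligand CD40L, rose by 0.57 (adjusted p = 0.0192), and Il18rap, a chain of the interleukin 18 receptor, by 0.71 (adjusted p = 0.0264). With arrays centred on their median the values of Cd40 and Il18rap, 0.14 and 0.28, did not pass, and with quantile normalization Tnfrsf1a did not at 31 d (-0.43, adjusted p = 0.108) nor Cd14 at 21 d (-0.89, adjusted p = 0.0846). Some dendritic cell markers fell beside these receptors, with Cd209a at -3.58 and Siglech at -1.25 at 21 d, and Cd209a at -3.72, Siglech at -2.45, Flt3 at -2.20 and Clec9a at -1.23 at 31 d. They made 2 falls of 7 tested at 21 d and 4 of 7 at 31 d, where 3.27% and 29.1% of named genes fell. Itgax, Zbtb46 and Batf3 did not pass on either day (0.013, 0.16 and -0.18 at 21 d, -0.36, 0.020 and 0.083 at 31 d). The part of dendritic cells in the receptor results, as in those of Cd83 and Irf8 among the targets, was not tested.

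Among the kinases, adaptors and ubiquitin ligase genes between receptor and NF-kB, those that passed were lower on both days. At 21 d 3 of 24 fell, against 3.27% of named genes. These were Map3k8, a kinase bound by the Nfkb1 precursor, by 1.52 (SE 0.264, adjusted p = 0.0151, limma), the adaptor kinase Irak2 by 1.39 and Ikbkb, the catalytic IKK beta, by 1.22. They passed in 10, 7 and 5 of the 12 fits that left out 1 array, with adjusted p of up to 0.0638, 0.124 and 0.123, and quantile normalization ended the call of Irak2 (-0.99, adjusted p = 0.117). At 31 d 14 of 24 fell and none rose, where 29.1% and 21.5% of named genes did. The list median was -0.76, beside -0.11 over all tested named genes, which is not matched for level. Clusters within 1 log2 unit of the control means of Relb (6.03), Nfkb2 (6.95) and Rela (8.24) had medians of -0.31, -0.58 and -0.85. The list, with control means from 4.67 (Traf5) to 10.92 (Tab2) at 31 d, was not set against clusters of its own levels. Ikbkb fell by 1.69 (SE 0.275, adjusted p = 0.0015), Map3k8 by 1.66 (SE 0.264), Sharpin, a subunit of the linear ubiquitin ligase, by 1.51 (SE 0.354) and Irak2 by 1.44 (SE 0.309), and each passed in all 12 of those fits.

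Other inhibitors mostly stayed short of the threshold at 21 d, where 1 of 27 fell, against 3.27% of named genes. This was Zfp36l2, a protein that destabilises cytokine mRNA, lower by 1.19 (SE 0.221, adjusted p = 0.0202, limma, passed in 9 of 12 fits). At 31 d 7 fell and 2 rose, where 29.1% and 21.5% of named genes did. Zfp36, which speeds the decay of Tnf mRNA, fell by 2.72 (SE 0.505, adjusted p = 0.00269), Zfp36l2 by 1.42, the ubiquitin ligase gene Itch by 1.25 and Tollip, a restrainer of interleukin 1 and Toll-like receptor signalling, by 1.16. Tnip3, a partner of A20, rose by 0.78 (adjusted p = 0.0284; 8 of 12 fits), and Otulin, which removes linear ubiquitin chains, by 0.39 (adjusted p = 0.0484; 1 of 12 fits). With arrays centred on their median Otulin turned to -0.04 and Tnip3 did not pass, at 0.35. Calls were also lost with quantile normalization for Tollip (-0.48, adjusted p = 0.0625) and Tnip3 (0.51, adjusted p = 0.202) at 31 d, and for Zfp36l2 at 21 d (-0.80, adjusted p = 0.0726).

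Textbook targets outside the 10 genes moved in both directions, at shares near those of all named genes at 31 d. At 21 d 5 of 43 fell and 1 rose, against 3.27% and 2.55% of named genes. Of the 5, the 4 largest falls were those of the chemokine gene Ccl3, by 2.43, and the dendritic cell activation marker Cd83, by 2.06. The prostaglandin synthase Ptgs2, by 1.42, and the chemokine receptor-like Ccrl2, by 1.31, came next. The acute-phase gene Saa3 rose by 2.37. Cd83 was read from a cluster named as unmapped, at a mean of 4.07 with MEC1, near the medians of those arrays. Cd83 passed in 12 of the 12 fits that left out 1 array, Saa3 and Ccrl2 in 8, Ccl3 in 3 and Ptgs2 in 2. With quantile normalization Ptgs2 and Ccrl2 did not pass at 21 d (-1.04 and -1.21, adjusted p = 0.0869 and 0.0633). At 31 d 11 of 43 fell and 9 rose, where 29.1% and 21.5% of named genes did. Saa3 rose by 6.04 (SE 0.467), Bcl2a1a, a survival gene with near-identical copies that share probes, by 2.73 (SE 0.305), the cytokine gene Il1b by 2.03 (SE 0.206) and the costimulator Cd80 by 1.55 (SE 0.341, adjusted p = 0.00578). The genes that fell most were the chemokines Ccl3, at -3.71 (SE 0.597), and Ccl2, at -2.84 (SE 0.416), the myeloid regulator Irf8, at -2.62 (SE 0.378), and Tnfaip2, a TNF-induced gene, at -2.01 (SE 0.218). These 8 passed in all 12 fits.

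**Figure D4:**
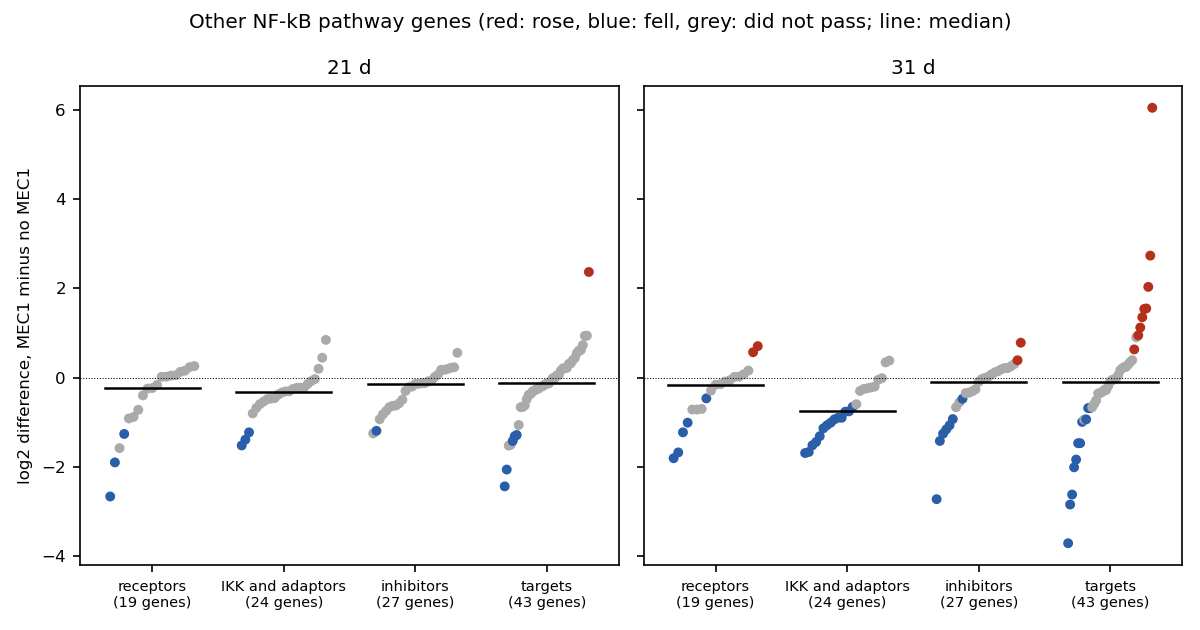
Log2 difference of MEC1 minus no MEC1 (vertical axis) of 113 further NF-kB pathway genes at 21 d and 31 d, by list (horizontal axis), each point 1 gene and each line the median of a list. At 31 d 14 of 24 kinases, adaptors and ubiquitin ligase genes fell, and 11 of 43 targets fell and 9 rose. Of all named genes 29.1% fell and 21.5% rose, shares that are not matched for level.

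From 21 d to 31 d in mice with MEC1, 2 of the 113 changed, against 0.297% of named genes: Saa3 rose by 3.41 (SE 0.467, adjusted p = 0.0252) and Il1b by 1.32 (SE 0.206, adjusted p = 0.0364), in 4 and 1 of the 12 fits that left out 1 array. Without MEC1 none of the 113 passed between the days (0.0102% of named genes did), and 4 passed with array weights. At an unadjusted p under 0.05, 13 of the 113 were past the threshold, all lower, where 2.18% of named genes were lower. The difference of the 2 MEC1 effects also passed for none (limma), against 0.00512% of named genes, and for 10 with array weights. At an unadjusted p under 0.05, 16 of the 113 were past the threshold, near the share of named genes, 15.2%.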

How the data were processed

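The authors' deposited values are log2 intensities per transcript cluster, 1 array per mouse. The submitters' processing notes list RMA and Affymetrix Expression Console, without their roles; version and genome build are not given in the sources used here. Of 72688 features 6732 controls were left out. Symbols came from the platform's table, updated through RefSeq: 31438 of 65956 clusters had 1 symbol, 1312 several and 33206 none.

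A cluster was tested if above its array's median in at least 3 arrays. Groups followed the labels, in which mouse numbers mark separate animals. The 4 group means were estimated over the 12 arrays in limma (3.58.1, under R 4.3.3; empirical Bayes, two-sided, Benjamini-Hochberg over 37240 clusters, threshold 0.05), with 5 contrasts, and the code was tested on simulated data. Alternatives were the filter, normalization, array weights, moderation, fewer arrays, a replicate block, the hybridisation-control level as a covariate, cluster averaging and leaving out each array. The members, the 4 pathway lists and the marker lists were chosen with earlier results of these data known. Pathway genes named are up to 4 rises and 4 falls of the largest size per list in each MEC1 comparison, and up to 3 in the other contrasts.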

Additional observations from a re-analysis of the deposited data

How the results depend on the processing

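Unless a value is given, the cause of a change was not tested. The share of all named genes called under each alternative is not given here, so the counts below have no background beside them. Of the counts of called NF-kB genes at 31 d, 4 of 9, centring each array on its median left 2 (Rela and Nfkbiz, both lower), the 6 arrays of 31 d alone left 1 and the hybridisation-control covariate left 0. Leaving out 1 array gave 1 to 4 at 31 d and 0 to 1 at 21 d. With array weights 3 genes passed at 21 d, 3 between the days with MEC1, 3 between the days without it and 2 for the difference of the effects; the covariate gave 1 between the days without MEC1. Quantile normalization over the 11 arrays other than MEC1 31 d replicate 3, chosen after seeing the data, gave 1 at 21 d.

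For the 113 further pathway genes, the 13 calls at 21 d became 55 with array weights, 5 with the 6 arrays alone, 1 with the covariate and 3 to 21 with 1 array left out. The 50 calls at 31 d became 1 with the covariate and 31 with the added quantile normalization, under which Sharpin, Irak2, Itch, Tollip, Tnip3, Tlr7, Tlr9 and Tnfrsf1a did not pass. Between the days with MEC1, 2 calls became 4 with quantile normalization, 37 with array weights, 1 with the covariate, 0 with centring or the 6 arrays alone, and 0 to 1 with 1 array left out. Between the days without MEC1, 0 became 4 with array weights. For the difference of the effects, 0 became 10 with array weights, 2 with quantile normalization, 1 with the covariate, 1 with the added quantile normalization and 0 to 1 with 1 array left out.

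The labels do not say that the replicate numbers pair the mice. Deviations of same-numbered arrays from their group means correlated at -0.36 to 0.42. Differently numbered arrays were not set beside them, so these values do not decide on a pairing. With the replicate block 1 pathway gene was called between the days with MEC1, and Rela at 31 d missed the threshold (adjusted p = 0.0591).

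Some differences changed sign. With quantile normalization Relb at 21 d was 0.20, Tnf at 31 d 0.20 and Nfkb2 between the days with MEC1 0.30; over 11 arrays these were 0.21, 0.23 and 0.36, and the difference of the effects for Rela was 0.12. With centring Nfkb2 at 21 d was -0.20, Tnfaip3 at 31 d -0.25, Otulin at 31 d -0.04, and Relb and Icam1 between the days with MEC1 -0.093 and -0.077. With array weights Nfkb2 was -0.046 at 21 d and 0.14 between the days with MEC1, and the difference of the effects was 0.069 for Rela and 0.00093 for Nfkbiz. The covariate turned Rela, Relb, Rel, Nfkbiz, Tnfaip3 and Ccl3 at 21 d to 0.40, 0.20, 0.48, 1.07, 0.84 and 0.27. At 31 d it turned Rela, Rel, Nfkbiz and Tnf to 0.82, 2.36, 1.61 and 0.74, Ikbkb, Sharpin and Irak2 to 0.24, 0.78 and 0.28, and Zfp36l2, Itch and Tollip to 0.021, 0.33 and 0.72. Tnfrsf1b, Tlr9 and Ccl3 at 31 d turned to 0.12, 0.13 and 1.07 with it, Nfkb2 and Tnfaip3 between the days with MEC1 to 0.36 and 0.068, and the difference of the effects to 0.43 for Rela and 0.54 for Nfkbiz. With 1 array left out, Nfkb2 ranged from -0.072 to 0.045 and Tnf from -0.065 to 0.70 at 21 d, and Tnfaip3 from -0.17 to 0.55 at 31 d. Between the days with MEC1 the ranges were -0.19 to 0.18 for Nfkb2, -0.0033 to 0.21 for Relb and -0.10 to 0.46 for Icam1.

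Groups of 3 arrays limit the precision throughout. The covariate is nearly the group itself, with 92.1% of its variance between groups, so its fit leaves little to estimate a MEC1 effect from.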
